A study of Mus musculus with 4 samples.

Results

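The 6 long noncoding RNA genes 1500004A13Rik, Gm12160, Gm19299, Gm17167, Gm36684 and Gm48606 were followed through every cell type and library of the lateral septum (LS). They are 6 of the 32285 genes counted in the files, and they were picked by symbol because earlier results of these same libraries had shown them nearly absent or much lower in one strain background. The difference between strain backgrounds is therefore given for them as a description, without a test, whereas the distribution over cell types within a library was not used to pick them and was tested. In single-nucleus RNA sequencing, each RNA molecule is counted once by its unique molecular identifier (UMI), and levels are given here as CPM, which set the count of a gene against the summed count of its class and library. The method reads the 3′ ends of transcripts, so CPM were not divided by transcript length, and levels are compared between classes and libraries but not between genes.

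The LS is a mostly GABAergic forebrain nucleus linked to anxiety and fear, and the study asked how its cells differ between mice with different immune backgrounds. LS tissue of male mice aged 6 to 8 weeks was pooled from 3 mice per library, giving 4 libraries. C57J 1 (batch 1) and C57J 2 (batch 2) came from C57BL/6JNifdc mice, called C57J here. The nude and BALB/c libraries (both batch 2) came from the strains they are named after. Of these, nude mice carry a Foxn1 knockout on the BALB/c background and lack mature T cells. The comparison of backgrounds thus set the pair of C57J libraries against those of nude and BALB/c mice, each of which is 1 pool, so that the spread between single mice is not known. A genotype difference between nude and BALB/c mice cannot be told apart from a difference between these pools. Reads of every library were counted on the same reference, mm10. Whether reads of nude and BALB/c were aligned or assigned less often than those of C57J was not tested. The kept nuclei numbered 10913 to 13075 per library, with median depths of 4112 to 8272 UMIs, and BALB/c was the deepest. Between 29 and 63 cell barcodes were shared by each pair of libraries, at most 0.478% of a library.

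Long noncoding RNAs are transcripts that are not translated into protein. Many are retained in the nucleus, where some act on the chromatin of neighbouring genes or serve as scaffolds for proteins, whereas for others only the act of transcription seems to matter. As a group they are expressed at low levels, in fewer cell types than protein-coding genes, and their sequences change faster in evolution. No function is assumed below for any of the 6 genes.

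The genes lie on 6 different chromosomes. On GRCm38 (mm10), the GENCODE annotation places 1500004A13Rik at chr3:88782943-88832547 on the minus strand, with 9 transcripts over 49.6 kb. It is overlapped on the other strand by the pseudogene 5830417I10Rik (chr3:88775216-88825587), which was not among the counted genes. Gm12160 is at chr11:45160943-45213656 on the plus strand, a transcript of 2 exons and 342 bases within 52.7 kb. Gm38087 (chr11:45189570-45189872, minus strand) lies within this span and was not among the counted genes either. Gm19299 is at chr9:67133560-67213918 on the plus strand, with 2 transcripts of 3 exons each, and exons make up 2.03% of its span. Gm17167 is at chr4:42206998-42235313 on the plus strand, overlaps the pseudogene Gm13301 and lies in a region of near-identical gene copies, so that the assignment of its reads is uncertain. Gm36684 is a single-exon gene of 3095 bases at chr17:13330748-13333842 on the plus strand, and the annotation used here gives its identifier the name AC166110.4. RefSeq places its model of the symbol Gm36684 at chr17:13170494-13331222, mostly outside this span, and the position, 3′ end and neighbours given here are those of the counted identifier. Gm48606 is at chr12:16207733-16286119 on the plus strand, with 6 exons, and is overlapped on the other strand by the noncoding genes Gm36372 and Gm48605. The files do not state whether reads were assigned by strand, so it is not known whether reads of these overlapping genes were kept apart.

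The 3′ ends of Gm19299, Gm17167, Gm36684 and Gm48606 are shown because the assay primes on poly(A) tails. Most exonic reads should therefore come from near the 3′ ends of the transcripts in use. Each line gives the last 150 bases of the longest annotated transcript (5′ to 3′ on the RNA strand, GRCm38 sequence written as DNA), with the polyadenylation signal AATAAA in capitals where a search of that strand found it.
Gm19299: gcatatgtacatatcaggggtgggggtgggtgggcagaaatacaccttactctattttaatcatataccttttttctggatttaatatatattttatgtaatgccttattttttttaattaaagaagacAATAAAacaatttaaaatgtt
Gm17167: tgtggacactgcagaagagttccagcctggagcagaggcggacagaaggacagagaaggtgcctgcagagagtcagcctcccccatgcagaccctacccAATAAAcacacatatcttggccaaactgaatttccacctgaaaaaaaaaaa
Gm36684: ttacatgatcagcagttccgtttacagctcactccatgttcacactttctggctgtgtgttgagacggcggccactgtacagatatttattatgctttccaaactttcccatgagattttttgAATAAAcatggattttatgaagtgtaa
Gm48606: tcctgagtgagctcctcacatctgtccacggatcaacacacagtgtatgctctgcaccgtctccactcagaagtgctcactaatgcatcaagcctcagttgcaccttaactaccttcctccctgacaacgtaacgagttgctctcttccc
The signal was found in Gm19299, Gm17167 and Gm36684, ending 15, 45 and 21 bases before the annotated end, and not in Gm48606, whereas 31.0% of 135671 annotated transcripts held it in the same window. The stretch shown lies at chr9:67163639-67163788 for Gm19299, chr4:42235164-42235313 for Gm17167, chr17:13333693-13333842 for Gm36684 and chr12:16285970-16286119 for Gm48606. Gm19299 has another annotated transcript, with which the span of the gene runs on to position 67213918, and that 3′ end is not shown. The match of letters is a description and does not show which end is used in these nuclei.

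RefSeq promoters (GRCm38.p6, 250 bases before to 50 after the start) were at hand for 1500004A13Rik and Gm19299 at the position of the counted gene. They are shown because the first gene was expressed in every class. The second, in nude and BALB/c, was by far highest in oligodendrocyte precursor cells (OPCs) among the classes compared. Capitals mark the letters GGGCGG, bound by factors of the Sp1 family, in the first promoter. In the second they mark TATAAA, a core promoter element, and both motifs were searched on either strand.
1500004A13Rik: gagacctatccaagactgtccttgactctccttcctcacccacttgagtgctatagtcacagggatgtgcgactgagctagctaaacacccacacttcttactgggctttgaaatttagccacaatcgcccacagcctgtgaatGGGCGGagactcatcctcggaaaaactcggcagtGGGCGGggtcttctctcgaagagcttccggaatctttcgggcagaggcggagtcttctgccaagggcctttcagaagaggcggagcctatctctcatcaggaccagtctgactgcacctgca
Gm19299: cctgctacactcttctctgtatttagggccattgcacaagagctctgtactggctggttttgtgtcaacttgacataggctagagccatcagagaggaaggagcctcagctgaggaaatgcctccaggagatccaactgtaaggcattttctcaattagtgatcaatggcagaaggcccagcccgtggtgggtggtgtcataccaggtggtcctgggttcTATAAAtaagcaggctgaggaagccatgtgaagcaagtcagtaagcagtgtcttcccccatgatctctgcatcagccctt
The 1500004A13Rik promoter (chr3:88832498-88832797, minus strand) held 2 copies of GGGCGG and 11 CG dinucleotides, and the Gm19299 promoter (chr9:67133311-67133610, plus strand) held 1 TATAAA and 1 CG dinucleotide. Over 32851 RefSeq promoters, 35.7% held GGGCGG and 13.6% held TATAAA on either strand, and the median number of CG dinucleotides was 7. CCAAT, which 37.4% of promoters held, was found in neither.

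Nuclei were clustered without the 6 genes, their neighbours and the genes that differed most between backgrounds, and named from marker genes. The classes compared were LS neurons (20551 nuclei), other neurons, astrocytes (7686), oligodendrocytes (OLs, 5353), OPCs (1922) and microglia (1377). The 5 LS neuron markers together lay between 2626 and 2772 CPM in LS neurons and between 553 and 707 CPM in other neurons, and each glial marker list was highest in its own class. Transcripts of neurons were also counted in glia: Snap25, a neuronal vesicle-fusion protein, had 883 to 1045 CPM in LS neurons, 223 to 428 CPM in astrocytes and 389 to 639 CPM in microglia. Whether neuronal RNA was part of the glial levels given below was not tested.

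In each of the 36 pairs of a gene and a class, the CPM of the backgrounds did not overlap, which was the property the genes were picked for. For comparison, the same was counted over all genes, but only those that passed the filter on low counts. Of these, 45.1% did not overlap in LS neurons, 43.1% in other neurons, 38.0% in astrocytes, 33.2% in OLs, 36.6% in OPCs and 33.1% in microglia. With edgeR's quasi-likelihood test (adjusted p below 0.05 together with a log2 fold change above 0.5 in either direction), 2.23% of genes were called between backgrounds in LS neurons, 0.799% in other neurons, 0.0566% in astrocytes, 0.00794% in OLs, 0.210% in OPCs and 0.00% in microglia. In microglia, that is 0 of 9210 genes, with 499 at an unadjusted p under 0.05 and 19 called by DESeq2. Of the 36 pairs, 24 passed the filter on low counts, and some of the others rest on a few UMIs. Gm19299 in OLs, for example, had 1 UMI over the C57J libraries and 5 over nude and BALB/c. Calls of the 6 genes are not counted as results, since the genes were picked for this difference. They are nevertheless part of the shares over all genes. The 1 gene called in OLs was 1500004A13Rik, and the 6 genes gave 3 of the 8 calls in astrocytes and 4 of the 23 in OPCs.

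**Figure D1:**
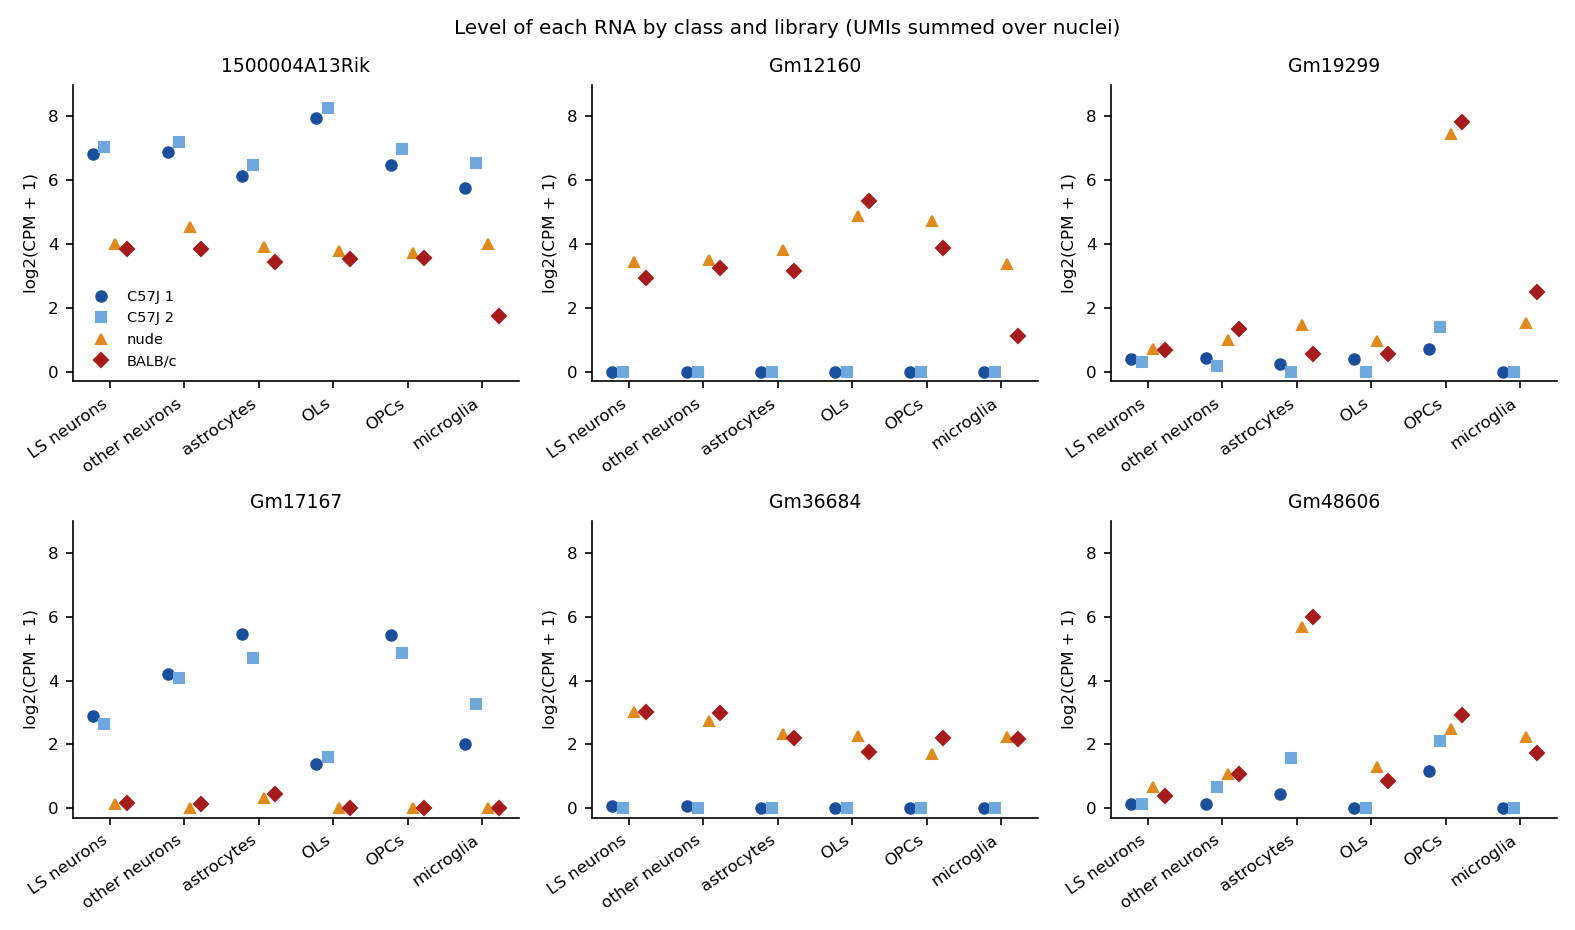
Level of each RNA as log2(CPM + 1) on the vertical axis, by class on the horizontal axis, with 1 point per library (UMIs summed over nuclei). The C57J points lie above the others for 1500004A13Rik and Gm17167 and below them for the other 4 genes, and the nude and BALB/c points of Gm19299 and Gm48606 rise above the rest in OPCs (174 and 228 CPM) and in astrocytes (50.6 and 62.4 CPM).

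1500004A13Rik was counted in every class of each library, and so was present in both backgrounds. In all nuclei, 9205 UMIs of it were counted in C57J 1, 8542 in C57J 2, 1119 in nude mice and 1294 in BALB/c mice. In LS neurons its level was 112 CPM in C57J 1, 130 CPM in C57J 2, 15.02 CPM in nude mice and 13.2 CPM in BALB/c mice. Both C57J libraries were thus high and both others low, with a fold of 8.57 (95% counting interval 8.11 to 9.06), and the low background kept a level far above a count of 0. In OLs the level was 244, 305, 12.9 and 10.4 CPM in the same order of libraries, a fold of 24.7 (20.1 to 30.8). Astrocytes showed a fold of 6.93 (5.78 to 8.36) and OPCs one of 9.27 (6.77 to 12.9). The OLs therefore had the highest C57J levels of the 6 classes and levels no higher than those of LS neurons in nude and BALB/c.

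Of the LS neurons, 57.2% (55.8% to 58.5%, exact 95% interval) held a UMI of 1500004A13Rik in C57J 1, 55.9% in C57J 2, 10.2% in nude mice and 16.2% (15.2% to 17.4%) in BALB/c mice. Once each nucleus was thinned to 1000 UMIs, these shares were 10.53%, 12.7%, 1.39% and 1.25%, so the higher share in BALB/c than in nude did not hold at equal depth. In OLs the share was 42.2%, 41.8%, 2.38% and 4.29%, and 21.3%, 23.9%, 1.37% and 1.04% after thinning. The gene was found in every LS neuron subcluster of at least 50 nuclei in each library. Subcluster levels ran from 68.1 to 139 CPM in C57J 1, from 108 to 148 CPM in C57J 2, from 10.46 to 17.6 CPM in nude mice and from 6.81 to 16.9 CPM in BALB/c mice. No subcluster of either C57J library came down to the highest subcluster of nude or BALB/c.

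Within libraries, the level of 1500004A13Rik in neurons and glia did not differ beyond the spread between libraries. The log2 difference of neurons minus glia was 0.27 ± 0.12 (SE, 4 libraries, adjusted p = 0.0820), where 70.4% of all genes passed the test. The difference was 0.04 in the C57J libraries alone (adjusted p = 0.715) and 0.56 in nude and BALB/c alone (adjusted p = 0.0344). TMM scaling moved the median of all genes by 0.21 toward neurons relative to total UMIs, and with total UMIs the C57J value turned to -0.19 (adjusted p = 0.0470). Against LS neurons, OLs were higher by 0.61 ± 0.22 on the log2 scale (adjusted p = 0.0167), astrocytes lower (-0.70 ± 0.22, adjusted p = 0.00897) and microglia lower (-1.27 ± 0.31, adjusted p = 0.00136). The OL value was 1.02 in the C57J libraries alone (adjusted p = 1.10e-08) and -0.41 in nude and BALB/c alone (adjusted p = 0.221), and the call over all libraries was lost with DESeq2 (0.51, adjusted p = 0.0910). The astrocyte call was lost with total UMIs (-0.50, adjusted p = 0.0559) and in nude and BALB/c alone (-0.45, adjusted p = 0.154). Other neurons and OPCs did not differ from LS neurons beyond their spread over all libraries, whereas in C57J alone OPCs were lower (-0.35, adjusted p = 0.0179). The shares of all genes called against LS neurons were 25.7% in other neurons, 69.5% in astrocytes, 68.6% in OLs, 54.8% in OPCs and 58.9% in microglia.

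Gm12160 was the gene closest to an on and off pattern. In the 6 classes, 0 UMIs of it were counted in either C57J library, and over all nuclei there were 2 UMIs in C57J 1, 1 in C57J 2, 747 in nude mice and 959 in BALB/c mice. The C57J UMIs came from 1 dividing progenitor and 1 newly formed oligodendrocyte in C57J 1 and 1 neuroblast in C57J 2. In LS neurons the level was 9.79 CPM in nude mice and 6.61 CPM in BALB/c mice, at least 219-fold higher than in C57J when 3 counts are allowed over both C57J libraries. In OLs it was 28.6 and 40.0 CPM, at least 75.4-fold higher. The share of OLs with a UMI was 5.03% (3.83% to 6.46%) in nude and 14.5% (12.8% to 16.4%) in BALB/c, whereas 0 of 1263 and 0 of 1418 OLs held one in C57J 1 and C57J 2, which allows shares of up to 0.238% and 0.212% when 3 UMIs are taken as possible. The nude and BALB/c shares are not at equal depth, since the median over all nuclei was 4596.5 UMIs in nude and 8272 in BALB/c.

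Among the classes, Gm12160 was highest in OLs. Glia exceeded neurons (log2 difference of neurons minus glia -1.02 ± 0.20, adjusted p = 0.00762). OLs exceeded LS neurons by 2.09 ± 0.30 on the log2 scale (adjusted p = 5.77e-05) and OPCs by 1.10 ± 0.36 (adjusted p = 0.0221), whereas astrocytes (0.15, adjusted p = 0.693) and other neurons (0.11, adjusted p = 0.836) did not differ from them beyond the spread. The C57J libraries held no UMIs for these comparisons, which therefore rest on nude and BALB/c. Fitted in nude and BALB/c alone, the adjusted p was 0.0160 for neurons against glia. Against LS neurons it was 4.68e-04 for OLs and 0.0426 for OPCs. OPCs had 25.7 CPM in nude, close to the OLs of that library, and 13.7 CPM in BALB/c, well below them. Among LS subclusters of at least 50 nuclei, levels ran from 1.75 to 19.9 CPM in nude and from 0 to 13.4 CPM in BALB/c. The subcluster led by Esr1, the estrogen receptor alpha gene, was the highest in both libraries. The subcluster led by Trpc6, a cation channel gene, was the lowest in both, with 1 UMI in 84 nuclei of nude and 0 UMIs in 65 nuclei of BALB/c.

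**Figure D2:**
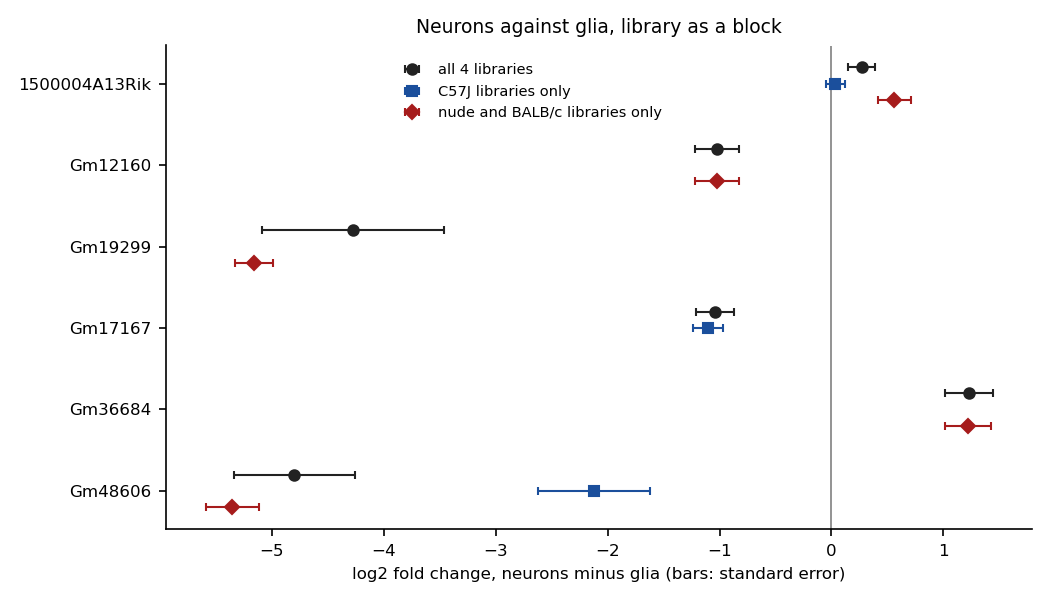
Log2 difference of neurons minus glia (horizontal axis, points with bars for the standard error) for each RNA, fitted over all 4 libraries, over the C57J libraries and over nude and BALB/c. Gm19299 and Gm48606 lie far to the glial side (-4.28 and -4.80 over all libraries), Gm36684 lies on the neuronal side (1.23) and 1500004A13Rik lies near 0.

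Gm36684 was the neuronal gene of the set. Over all nuclei, 3 UMIs were counted in C57J 1, 0 in C57J 2, 435 in nude mice and 650 in BALB/c mice. In LS neurons its level was 0.0430 CPM in C57J 1, 0 CPM in C57J 2, 7.16 CPM in nude mice and 7.15 CPM in BALB/c mice. The backgrounds were far apart, with a fold of 295 (81.4 to 2440.1), and nude and BALB/c lay side by side. The share of LS neurons with a UMI was 4.97% (4.43% to 5.54%) in nude and 9.12% (8.27% to 10.0%) in BALB/c, and 0.697% and 0.764% at equal depth.

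Neurons exceeded glia in Gm36684 by 1.23 ± 0.21 on the log2 scale (adjusted p = 0.00291). Relative to LS neurons, it was lower in astrocytes (-1.10 ± 0.23, adjusted p = 3.52e-04), OLs (-1.43 ± 0.26, adjusted p = 1.33e-04), OPCs (-1.28 ± 0.31, adjusted p = 0.00220) and microglia (-1.39 ± 0.43, adjusted p = 0.0210), and did not differ in other neurons beyond the spread. With DESeq2 the OPC value (-0.90, adjusted p = 0.131) and the microglia value (-0.67, adjusted p = 0.351) no longer passed, nor did microglia with total UMIs (adjusted p = 0.120). The C57J libraries held almost no UMIs of Gm36684, so all these comparisons rest on nude and BALB/c. Fitted in nude and BALB/c alone, the adjusted p was 0.0118 for neurons against glia. Against LS neurons it was 0.00322 for astrocytes, 0.00172 for OLs, 0.0170 for OPCs and 0.0309 for microglia. Glia held 3.63 CPM in nude mice and 3.18 CPM in BALB/c mice. In the same libraries Snap25 had 932 and 1045 CPM in LS neurons against 428 and 223 CPM in astrocytes. Whether neuronal RNA was part of the glial level of Gm36684 was not tested. Each of the LS subclusters held the gene, at 1.19 to 14.5 CPM in nude and 2.50 to 12.4 CPM in BALB/c.

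Among the classes compared, Gm19299 in nude and BALB/c was by far highest in OPCs, the dividing glial cells that give rise to oligodendrocytes. In OPCs 1 UMI was counted in C57J 1, 2 in C57J 2, 230 in nude mice and 631 in BALB/c mice, which is 0.628, 1.66, 174 and 228 CPM. The fold was 196 (66.8 to 952). In LS neurons the same gene had 0.322, 0.222, 0.640 and 0.608 CPM. Over nude and BALB/c together, the LS neuron level was 0.296% of the OPC level. Pdgfra, the receptor that marks OPCs, stood at 0.386% of its OPC level in LS neurons, so in LS neurons the RNA was about as low as that marker.

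The share of OPCs with a UMI of Gm19299 was 0.213% in C57J 1, 0.440% in C57J 2, 28.7% (24.8% to 32.9%) in nude mice and 51.8% (47.3% to 56.3%) in BALB/c mice. After thinning it was 0%, 0.220%, 14.4% and 18.8%, and the LS neuron shares without thinning were at most 0.764%. Newly formed oligodendrocytes, the step between OPCs and OLs, held 20 UMIs among 37 nuclei in nude (141 CPM), 0 among 14 nuclei in BALB/c, 1 in C57J 1 and 0 in C57J 2. In mature OLs there were 2 UMIs in nude and 3 in BALB/c. Glia exceeded neurons (log2 difference of neurons minus glia -4.28 ± 0.82, adjusted p = 0.00291), and within nude and BALB/c alone OPCs exceeded LS neurons by 8.23 (adjusted p = 1.15e-06). The excess in glia rests on nude and BALB/c, since C57J alone held too few counts to be fitted. Neurons had 0.328 CPM in C57J 1 and 0.196 CPM in C57J 2, and glia 0.268 and 0.229 CPM.

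**Figure D3:**
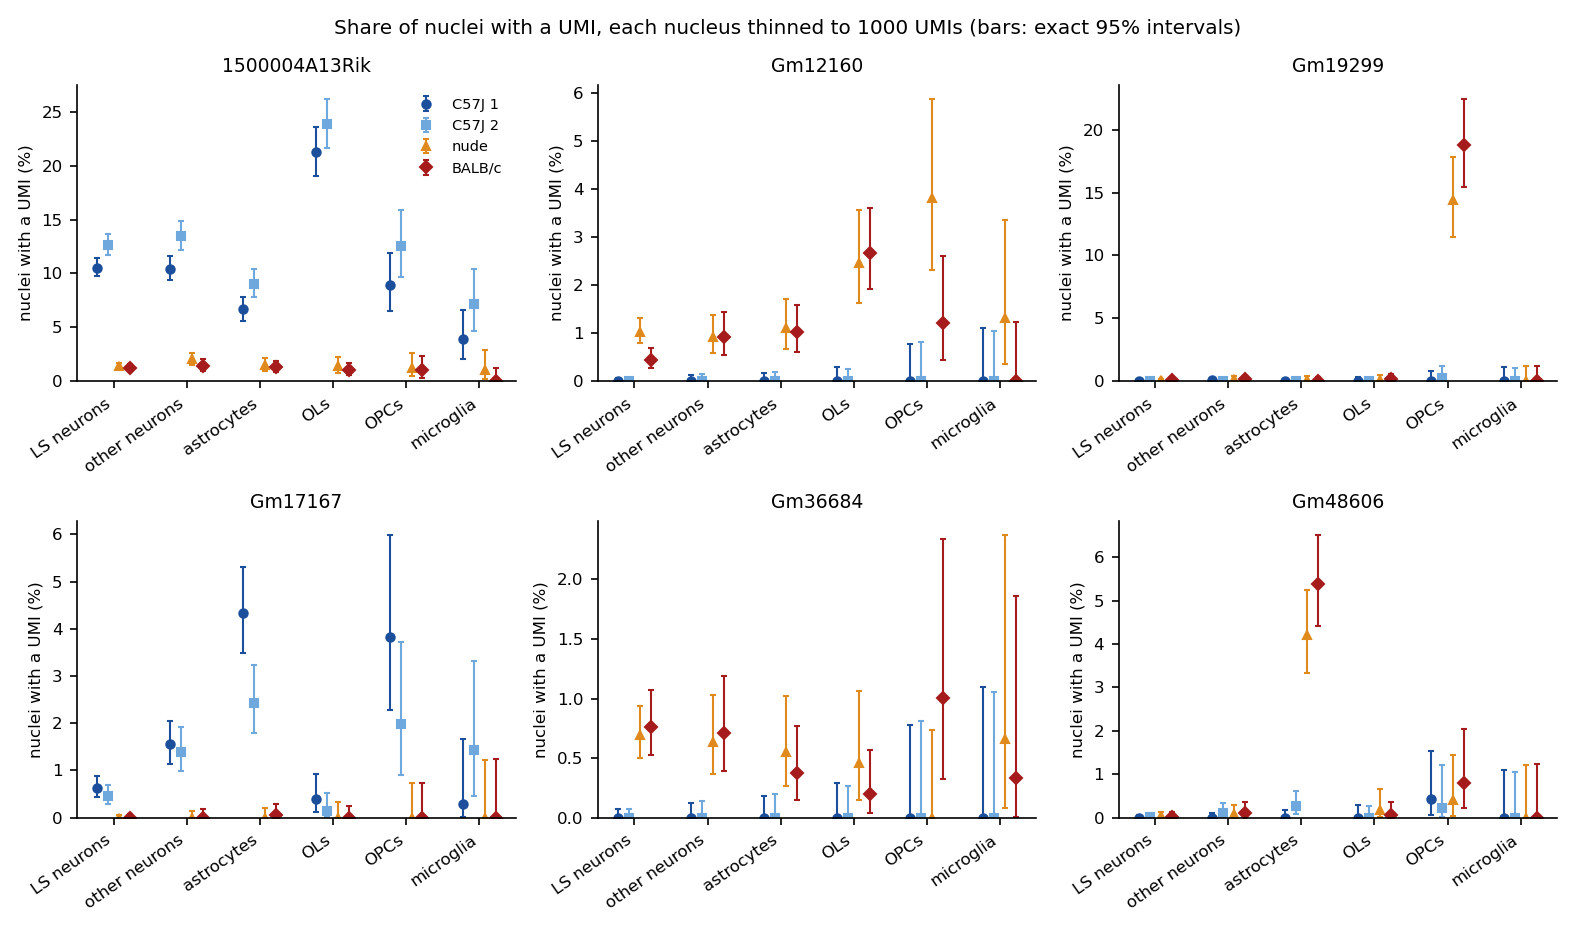
Share of nuclei with a UMI of each RNA (vertical axis, percent, separate scale per panel) by class and library, with each nucleus thinned to 1000 UMIs and bars for the exact 95% interval. At this equal depth 14.4% and 18.8% of OPCs in nude and BALB/c held Gm19299, and 4.22% and 5.39% of their astrocytes held Gm48606.

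In nude and BALB/c, Gm48606 was the astrocyte gene of the set. In astrocytes 2 UMIs were counted in C57J 1, 8 in C57J 2, 204 in nude mice and 535 in BALB/c mice, which is 0.345, 1.99, 50.6 and 62.4 CPM. The fold was 57.5 (31.1 to 120.5), with both C57J libraries low. OPCs held 1.26, 3.33, 4.53 and 6.51 CPM and LS neurons 0.0860, 0.0834, 0.572 and 0.304 CPM. The share of astrocytes with a UMI was 0.0964% in C57J 1, 0.418% in C57J 2, 9.60% (8.29% to 11.1%) in nude mice and 20.5% (18.7% to 22.4%) in BALB/c mice, and 0%, 0.265%, 4.22% and 5.39% after thinning.

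Glia exceeded neurons in Gm48606 (log2 difference of neurons minus glia -4.80 ± 0.54, adjusted p = 2.26e-04). Astrocytes exceeded LS neurons by 6.38 ± 0.46 (adjusted p = 5.23e-11) and OPCs by 3.75 ± 0.73 (adjusted p = 1.68e-04) on the log2 scale. Neither of these class contrasts could be fitted in C57J alone, for low counts. In C57J alone glia were also higher than neurons (-2.12, adjusted p = 0.00195), a value that rests on 18 UMIs in neurons and 16 in glia. Over nude and BALB/c, OPCs stood at 10.0% of the astrocyte level of Gm48606 and at 10.4% of that of Aqp4, the astrocyte water channel. In OLs the values were 1.62% for Gm48606 and 10.8% for Aqp4. Astrocytes were not uniform. The subcluster led by Slc6a11, Agt and Trpm3 had 93.5 CPM in nude mice and 115 CPM in BALB/c mice, the largest subcluster 41.1 and 57.02 CPM, and the one led by Adamts18 and Thbs4 only 9.83 and 5.79 CPM.

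Gm17167, like 1500004A13Rik, was high in C57J. Over all nuclei 1036 UMIs were counted in C57J 1, 593 in C57J 2, 5 in nude mice and 12 in BALB/c mice, a fold of 116 (72.0 to 199). In astrocytes its level was 43.3, 25.4, 0.248 and 0.350 CPM, and in OPCs 42.1, 28.3, 0 and 0 CPM. Both C57J libraries stood far above nude and BALB/c in either class, and C57J 1 was above C57J 2. LS neurons held 6.38, 5.23, 0.0915 and 0.118 CPM, other neurons 17.3, 15.7, 0 and 0.0861 CPM, and OLs 1.59, 2.04, 0 and 0 CPM. The gene was thus low in OLs and high in their precursors.

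Gm17167 was higher in glia than in neurons (log2 difference of neurons minus glia -1.04 ± 0.17, adjusted p = 0.00138). Against LS neurons it was higher in OPCs (2.33 ± 0.27, adjusted p = 2.11e-07), astrocytes (2.24 ± 0.23, adjusted p = 1.62e-08) and other neurons (1.29 ± 0.22, adjusted p = 9.40e-05) and lower in OLs (-1.92 ± 0.43, adjusted p = 4.78e-04). The call in other neurons was lost with DESeq2 (1.02, adjusted p = 0.0553). Nude and BALB/c held almost no UMIs of Gm17167, so all these comparisons rest on the C57J libraries. Fitted in C57J alone, the adjusted p was 5.25e-06 for neurons against glia. Against LS neurons it was 3.74e-08 for OPCs, 1.34e-10 for astrocytes, 2.74e-07 for other neurons and 6.39e-04 for OLs. Among astrocytes, the subcluster led by Adamts18 and Thbs4 had the highest level (79.0 CPM in C57J 1 and 45.6 CPM in C57J 2) and the one led by Slc6a11, Agt and Trpm3 the lowest (13.5 and 10.0 CPM). This order is opposite to that of Gm48606 in nude and BALB/c. Dividing progenitors held 69.6 and 35.02 CPM in the C57J libraries and 0 UMIs in nude and BALB/c. Among LS subclusters of at least 50 nuclei, Gm17167 ran from 1.05 to 18.2 CPM in C57J 1 and from 1.44 to 13.4 CPM in C57J 2, and the subcluster led by 6330411D24Rik and Pde1c was the lowest in both.

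**Figure D4:**
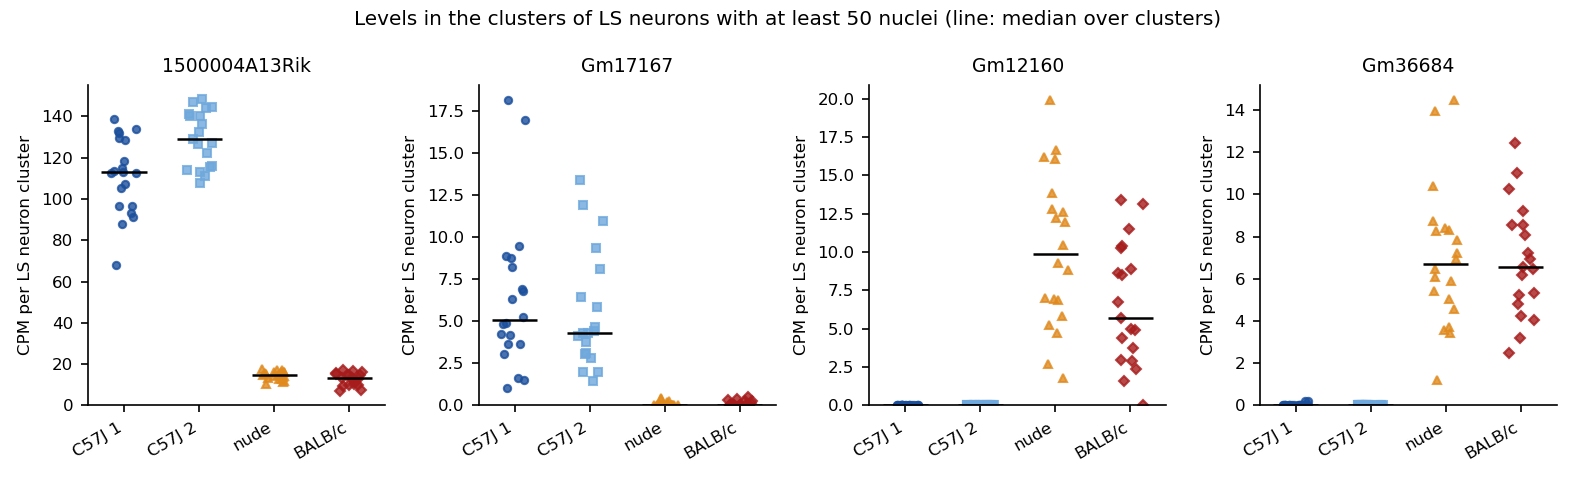
CPM of 1500004A13Rik, Gm17167, Gm12160 and Gm36684 (vertical axis, separate scale per panel) in every LS neuron subcluster of at least 50 nuclei. Each library has 1 point per subcluster and a line at the median over subclusters. The C57J subclusters of 1500004A13Rik (68.1 to 148 CPM) all lie above those of nude and BALB/c (6.81 to 17.6 CPM).

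C57J 1 is the only library of batch 1. The CPM of the backgrounds did not overlap in any gene and class, so leaving C57J 1 out could hardly turn a direction. Only the sizes are therefore compared. With C57J 2, nude and BALB/c only, the log2 difference (nude and BALB/c minus C57J) of 1500004A13Rik in LS neurons was -3.16 instead of -3.08, and that in OLs -4.65 instead of -4.52. For Gm19299 in OPCs it was 6.95 instead of 7.53, for Gm48606 in astrocytes 4.90 instead of 5.82 and for Gm17167 in astrocytes -6.14 instead of -6.60. In these classes the low background held few UMIs, so the sizes are uncertain. They numbered 3 for Gm19299 and 10 for Gm48606 over the C57J libraries, and 4 for Gm17167 over nude and BALB/c. The direction stayed the same in every gene and class that could be fitted, which the lack of overlap had all but set in advance. Whether batch added to the differences was not tested. Fitted values of Gm12160 and Gm36684, whose C57J counts are at or near 0, depend on the prior count and are not given as sizes.

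The genes near the members were followed to see whether the difference reached them. Within 100 kb of the 6 genes lay 26 genes of the files, of which 12 passed the filter on low counts in at least 1 class, all of them near 1500004A13Rik, Gm19299 or Gm48606. No neighbour of Gm12160, Gm17167 or Gm36684 was counted highly enough to be tested. Of 56 pairs of a neighbour and a class, 2 were called (3.57%), against 0.708% over all genes and classes. An unadjusted p under 0.05 was found in 15 of the pairs, 12 of them near 1500004A13Rik. The same neighbour can enter these counts in several classes. Over all genes it was found for 2687 of 18723 in LS neurons and 2205 of 17030 in other neurons. In glia the counts were 1047 of 14131 (astrocytes), 666 of 12602 (OLs), 806 of 10972 (OPCs) and 499 of 9210 (microglia). Both calls were in LS neurons, where 10 neighbours were tested and 2.23% of all genes were called, and both were next to 1500004A13Rik.

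Gon4l, which encodes a nuclear regulator of transcription, begins 2.68 kb from 1500004A13Rik on the other strand. Its level in LS neurons was 76.2 CPM in C57J 1, 75.9 CPM in C57J 2, 49.3 CPM in nude mice and 52.5 CPM in BALB/c mice, and it fell by 0.56 ± 0.085 on the log2 scale in nude and BALB/c (adjusted p = 0.0254). Gm43713, a noncoding gene antisense within Gon4l, had 20.2, 33.8, 11.4 and 7.71 CPM and fell by 1.47 ± 0.27 (adjusted p = 0.0480). Both moved in the same direction as 1500004A13Rik but by less. The use of strand in counting is not stated, so it is not known whether reads of Gon4l and Gm43713 were kept apart. With DESeq2 both stayed called in LS neurons (adjusted p = 1.78e-04 for Gon4l and 4.75e-06 for Gm43713). The same held with no filter on low counts (9.63e-04 and 1.77e-06) and with doublets kept (0.0285 and 0.0446). Without C57J 2 both were called too (log2 difference -0.58 and -1.09). Gon4l was lost from the calls without C57J 1 (-0.53). Both were lost without nude (-0.49 for Gon4l and -1.76 for Gm43713) or without BALB/c (-0.61 and -1.22). In nuclei thinned to 1000 UMIs neither passed (-0.48, adjusted p = 0.126, and -1.09, adjusted p = 0.137). In other neurons Gm43713 was not called (-1.57, adjusted p = 0.0620), except by DESeq2 (6.23e-06), with no filter on low counts (4.27e-14) and without either C57J library (3.80e-04 and 0.00789).

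The nearest tested gene on the other side of 1500004A13Rik, Syt11, a synaptotagmin of vesicle traffic, had 149.5, 133, 132 and 186 CPM in LS neurons and was not called (0.19, adjusted p = 0.679). Tln2, which encodes the integrin-binding protein talin 2 and ends 3.17 kb from Gm19299, had 212, 205, 196 and 189 CPM in OPCs (log2 difference -0.04 ± 0.15, adjusted p = 0.972). In the class where Gm19299 differed 196-fold, the difference of Tln2 was therefore within its error. Tpm1, a tropomyosin gene on its other side, did not differ in OPCs beyond the spread either (-0.02, adjusted p = 0.987). Gm36372 and Gm48605, which overlap Gm48606, had log2 differences of 2.86 ± 0.33 (adjusted p = 0.0759) and 2.87 ± 0.60 (adjusted p = 0.311) in astrocytes, and neither was called. Gm36372 was called by DESeq2 (adjusted p = 6.35e-06), with no filter on low counts (3.48e-06) and with doublets kept (0.0117). It was also called without nude (log2 difference 3.07) and without BALB/c (2.60). In thinned nuclei it was not called (2.51, adjusted p = 0.139), nor without C57J 1 (3.15) or C57J 2 (2.66). Gm48605 was called with no filter on low counts (adjusted p = 0.0480) and without nude (log2 difference 3.16).

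**Figure D5:**
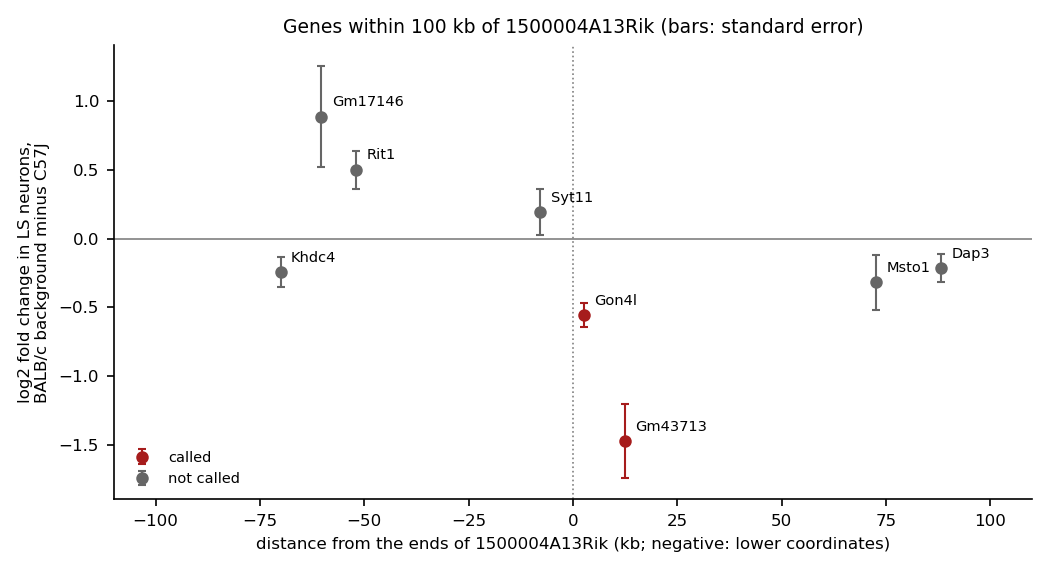
Log2 difference between backgrounds in LS neurons (vertical axis, nude and BALB/c minus C57J, bars for the standard error) of each tested gene within 100 kb of 1500004A13Rik, against its distance from the ends of that gene in kb. The called genes Gon4l (-0.56) and Gm43713 (-1.47) both lie on the side of higher coordinates, within 12.5 kb.

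For comparison with other noncoding RNAs, a list of known ones and all genes with similar symbols were read in the same fits. Of 20 noncoding RNAs known from brain nuclei, such as Malat1, Meg3 and Miat, edgeR called 0 in each of the 6 classes. It called 2.23% of all genes in LS neurons and a smaller share in each other class. An unadjusted p under 0.05 was found for 9 of the 20 in LS neurons, against 2687 of 18723 genes there, and for 0 to 3 in each other class. DESeq2 called 1 of the 20 in LS neurons and 2 in other neurons, against 651 and 397 of all genes. Their log2 differences in LS neurons ran from -0.54 for Gas5, a host gene of small nucleolar RNAs (adjusted p = 0.107), to 0.43 for Dlx6os1, an antisense RNA of GABAergic forebrain neurons (adjusted p = 0.118). The median was 0.12, against -0.0064 over all genes tested. Of the 4021 other genes with Gm or Rik symbols tested in LS neurons, 58 were called higher in nude and BALB/c and 79 higher in C57J, together 3.41%, against 2.23% of all genes.

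The genes whose levels were most like those of each member were ranked by Pearson's r of log2(CPM + 1) over the 24 sums of 6 classes and 4 libraries, among 16087 genes. The 24 sums share libraries, so these correlations carry the strain difference and are descriptions only. 1500004A13Rik was most like Cldn34c1 (r = 0.948), A730017L22Rik (0.932) and Fggy (0.896). Cldn34c1, a claudin family gene, lay between 6.07 and 42.2 CPM in the C57J sums and between 0 and 0.790 CPM in the others. Gm12160 was most like Prss41 (0.937), Gm10260 (0.920) and Eif3j2 (0.867), all between 0 and 0.497 CPM in C57J. Gm36684 was most like Gm10503 (0.931), Armc8 (0.906) and Lrrc37a (0.905), and Gm10503 lies on the same chromosome 17.

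The likeness was lower for both cell type restricted genes. Gm19299 was most like Gm35021 (0.846), Cdkn1c (0.803), a cell cycle inhibitor, and Gm20658 (0.8002), none of which came above 12.8 CPM in any sum. Gm48606 was most like the overlapping Gm36372 (0.837), Zfp775 (0.795) and Fars2 (0.787), the mitochondrial phenylalanine tRNA synthetase. Gm17167 was most like Gm21860 on the Y chromosome (0.891), Tatdn3 (0.880) and Nfs1 (0.865), the cysteine desulfurase of iron-sulfur cluster assembly. Nfs1 was at 33.3 to 49.6 CPM in C57J and at 12.8 to 23.2 CPM in the others, a narrower gap than that of Gm17167.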

How the data were processed

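Per the labels and the study's methods, nuclei of LS tissue were sequenced with 10x Genomics 3′ chemistry, and the authors deposited the raw UMI count of every gene in every called nucleus, without normalization, made with Cell Ranger 7.0.1 on mm10 according to the submitters' processing notes. Whether intronic reads were counted and how strand was used are not given in the sources used here. The total count per library was 102939576 (C57J 1), 72912922 (C57J 2), 82169638 (nude) and 125998527 (BALB/c) UMIs.

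Barcodes with over 200 and under 6000 genes, over 300 and under 50000 UMIs and under 2% mitochondrial UMIs were kept, and 6235 predicted doublets were taken out (expected rate 0.8% for every 1000 nuclei), which left 49425 nuclei. The 4 libraries were clustered together with scanpy 1.11.5 (Leiden, resolution 1, 40 components of 3000 variable genes, 6 neighbours per library). The members, the genes within 100 kb of them and 252 genes that differed between the backgrounds were left out of the clustering. Clusters were named by markers. Neurons without a type name (4905) were counted among other neurons, and 842 nuclei of low depth stayed unnamed and out of every class. Neurons are LS neurons and other neurons, and glia are astrocytes, OLs, OPCs and microglia. The members, the gene lists, the named genes and the tests were chosen with earlier results of these data known, and the clustering procedure and naming limits were settled after the data were seen.

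UMIs were summed per library and class and tested over all genes with edgeR 4.0.16 in R 4.3.3 (filterByExpr, TMM, quasi-likelihood F test, Benjamini-Hochberg), with the library as a block for comparisons between classes and no block for backgrounds, where C57J 1 alone is batch 1. Every adjusted p in the text is from edgeR's quasi-likelihood test unless DESeq2 is named. The libraries are separate pools. P-values between classes measure how the class difference varied over the libraries. For a member almost absent from a background, only the libraries of the other background inform that difference. Those between backgrounds measure the spread between the pools of a background, and the nude and BALB/c pools differ in genotype. Shares carry exact Clopper-Pearson 95% intervals and folds between summed counts carry exact 95% intervals, both covering counting error only, and where 0 UMIs were found, up to 3 were taken as possible. For equal depth each nucleus was thinned to 1000 UMIs, and 404 shallower nuclei were left out. Promoters are from RefSeq (GRCm38.p6), and positions, neighbours and 3′ ends are from GENCODE vM21 on GRCm38, matched by identifier. The 3′ ends of 1500004A13Rik and Gm12160 are not reported here. Named genes were all members, neighbours within 100 kb that were called, that overlapped a member or that were the nearest tested on each side, the highest and lowest of the noncoding RNA list in LS neurons, and the 3 genes most like each member (mean of at least 1 CPM). The marker genes, the genes that lead subclusters and the examples of the noncoding RNA list were named besides these. Alternatives were DESeq2 1.42.0, no filter on low counts, DESeq2 size factors, doublets kept, thinned nuclei, quality limits raised to 500 genes and 1000 UMIs, clustering at resolution 2, adjusted p alone, 50 and 200 kb, batch 2 only, CPM in place of TMM, each background alone and each library left out. Total UMIs in place of TMM was added after the data were seen. The scripts were tested on simulated data.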

Additional observations from a re-analysis of the deposited data

Results flagged for a closer look

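The order of cell classes for 1500004A13Rik differed between the backgrounds. Its CPM in neurons divided by that in glia was 0.947 in C57J 1, 0.807 in C57J 2, 1.26 in nude mice and 1.34 in BALB/c mice, so both C57J libraries lay below 1 and both others above it. Its CPM in OLs divided by that in LS neurons was 2.17 in C57J 1, 2.35 in C57J 2, 0.857 in nude mice and 0.788 in BALB/c mice. The difference between the backgrounds in these ratios was not tested. Both ratios use total UMIs, and with TMM scaling the C57J difference of neurons minus glia was 0.04 on the log2 scale.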

How the results depend on the processing

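The neurons against glia differences of Gm12160, Gm19299, Gm17167, Gm36684 and Gm48606 kept their direction and stayed past the threshold under every alternative that could be fitted. Not fitted, for low counts, were Gm12160 and Gm36684 without nude, without BALB/c or in C57J alone, Gm17167 without either C57J library or in nude and BALB/c alone, Gm19299 in C57J alone and Gm19299 and Gm48606 in thinned nuclei. The size of Gm19299 (-4.28) was -2.61 with DESeq2 and -4.83 to -3.58 with 1 library left out (-3.58 without nude, -3.65 without BALB/c), and that of Gm48606 (-4.80) was -3.83 and -5.13 to -4.20 (-4.20 without BALB/c). The difference of 1500004A13Rik (0.27) passed the threshold with no filter (0.32) and in nude and BALB/c alone (0.56), ranged from 0.12 to 0.41 with 1 library left out, passing without C57J 2, and turned to -0.19 in C57J with total UMIs; OLs minus LS neurons turned to -0.41 for it in nude and BALB/c alone. In the main fit 15 contrasts of a class with LS neurons were called for the members, and Gm19299 was not fitted. Over all genes the called share ran from 25.7% in other neurons to 69.5% in astrocytes, so this count is not a result about the members. Of the 15, DESeq2 lost 4 (OLs of 1500004A13Rik, other neurons of Gm17167, OPCs and microglia of Gm36684) and total UMIs lost 2 (astrocytes of 1500004A13Rik, microglia of Gm36684). In C57J alone 7 of them could be fitted and all 7 were called, and in nude and BALB/c alone 9 of 11 were called. The number of genes called between backgrounds moved most. In LS neurons (417) it was 651 with DESeq2, 1047 with no filter, 179 in thinned nuclei and 55 to 623 with 1 library left out. In other neurons (136) it was 397, 1062, 41 and 26 to 860 in the same order, in astrocytes (8) 97, 221, 0 and 0 to 1105, and in OLs (1) 79, 240, 4 and 0 to 845. OPCs (23) had 184 with no filter and 22 to 391 with 1 library left out, and microglia (0) had 19 with DESeq2, 94 with no filter and 0 to 980. The largest of these counts came without nude, except in LS neurons and other neurons, where they came without C57J 2 and the lowest without BALB/c (55) and without nude (26). With doublets kept, astrocytes had 89, OLs 81, OPCs 74 and microglia 113. Neighbours called numbered 1 to 2 with 1 library left out, as Gm36372 and Gm48605 without nude, Gm36372 without BALB/c, Gm43713 without C57J 1 and both Gm43713 and Gon4l without C57J 2, and 4 within 200 kb, where Ebf1 (near Gm12160) and Gm3892 (near Gm17167) were added. The cause was not tested in any of these. In microglia each member had at most 53 UMIs in a library, and 1 of the 6 passed the filter on low counts there. No paired analysis was possible because the groups share fewer than 2 replicate numbers.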
